A study of Mus musculus with 6 samples.

Results

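The 10 genes described here encode the core of the mammalian circadian clock: Arntl, Clock, Per1, Per2, Per3, Cry1, Cry2, Nr1d1, Nr1d2 and Dbp. They were chosen by name, as the rows of the authors' deposited table that carry these symbols, and all 10 were found among its 16472 genes. The study used HT22, an immortalised mouse hippocampal cell line kept in serum-containing medium. Cultures received DMSO vehicle or AA147, a compound known for turning on ATF6, a sensor of protein misfolding in the endoplasmic reticulum, and the oxidative stress regulator NRF2. The labels give the AA147 dose as 10 mM, printed as labelled though it may be a slip for a micromolar dose, and the exposure as 16 h for both groups, with 3 libraries of non-stranded mRNA per group and 6 in all. HT22 is a single line, and nothing in the labels says that the replicates came from separate experiments, so the errors may measure technical spread only.

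The clock is a feedback loop of transcription. ARNTL (also called BMAL1) and CLOCK form the positive arm, a heterodimer that binds E-box sequences and activates the Per and Cry genes, whose proteins form the negative arm and repress that dimer. The same dimer activates Nr1d1 and Nr1d2, which encode the REV-ERB nuclear receptors, repressors of Arntl transcription that compete with the ROR activators for the same elements. Dbp is an output gene driven by E-boxes, and its protein activates genes with D-box elements, among them Per genes. Cultured cells keep this loop, and a change of medium or serum can set its phase. A single time of collection gives a level and no rhythm, so a shift of phase and a change of mean level cannot be told apart in these data.

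The promoter windows of the members show how these elements sit on the genes that the results turn on. RefSeq windows on mouse assembly GRCm38.p6, from 250 bases before to 50 after an annotated start, were at hand for 9 of the 10 members, with 13 windows in all and none for Per2. In the 5 windows printed here, 5′ to 3′, capitals mark the letters of the E-box (CACGTG), the E′-box (CACGTT), the D-box (TTATGTAA), the core of the element bound by ROR and REV-ERB receptors (AGGTCA) or the core of the antioxidant response element bound by NRF2 (TGACNNNGC), on either strand. Arntl is shown for its receptor element, Per1 and Cry1 for their E-boxes, Per3 for its D-boxes and Nr1d1 for its E′-box.
Arntl, chr7:113207261-113207560, plus strand: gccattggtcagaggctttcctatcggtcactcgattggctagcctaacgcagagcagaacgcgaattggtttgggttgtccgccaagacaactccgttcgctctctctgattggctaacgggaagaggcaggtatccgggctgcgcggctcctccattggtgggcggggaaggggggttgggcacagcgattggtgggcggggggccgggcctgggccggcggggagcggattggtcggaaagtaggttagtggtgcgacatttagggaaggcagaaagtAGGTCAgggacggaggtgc
Per1, chr11:69098699-69098998, plus strand: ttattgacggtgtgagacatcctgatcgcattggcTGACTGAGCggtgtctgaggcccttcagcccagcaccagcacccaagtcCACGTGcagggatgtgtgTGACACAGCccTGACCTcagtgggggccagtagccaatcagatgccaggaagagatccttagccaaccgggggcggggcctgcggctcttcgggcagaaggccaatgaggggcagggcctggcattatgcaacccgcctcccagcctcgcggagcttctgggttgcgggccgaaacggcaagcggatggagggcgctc
Per3, chr4:151044616-151044915, minus strand: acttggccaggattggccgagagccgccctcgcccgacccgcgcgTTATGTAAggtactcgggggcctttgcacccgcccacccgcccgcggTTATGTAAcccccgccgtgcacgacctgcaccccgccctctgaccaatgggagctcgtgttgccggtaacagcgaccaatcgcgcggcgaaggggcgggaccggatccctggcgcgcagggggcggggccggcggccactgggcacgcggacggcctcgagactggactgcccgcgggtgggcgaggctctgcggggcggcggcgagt
Cry1, chr10:85185005-85185304, minus strand: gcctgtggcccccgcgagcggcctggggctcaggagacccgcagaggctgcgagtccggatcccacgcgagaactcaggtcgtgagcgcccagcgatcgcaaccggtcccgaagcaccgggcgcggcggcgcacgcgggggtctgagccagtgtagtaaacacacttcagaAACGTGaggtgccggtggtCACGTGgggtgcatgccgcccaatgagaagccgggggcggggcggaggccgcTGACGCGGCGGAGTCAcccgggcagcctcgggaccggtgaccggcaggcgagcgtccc
Nr1d1, chr11:98775328-98775627, minus strand: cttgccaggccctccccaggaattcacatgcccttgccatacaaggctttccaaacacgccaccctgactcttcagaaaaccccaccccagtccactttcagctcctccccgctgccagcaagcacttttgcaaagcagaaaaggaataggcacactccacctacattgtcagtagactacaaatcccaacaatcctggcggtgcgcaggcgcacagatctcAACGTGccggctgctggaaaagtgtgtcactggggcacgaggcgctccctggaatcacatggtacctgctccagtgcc

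None of the 6 motifs searched was found in every window. The E-box was found in the windows of Per1, 166 bases before the start, and of Cry1, 60 bases before it, and in 7.15% of all 32817 windows of RefSeq. The E′-box was found in 3 of the 13 windows, those of Cry1, Cry2 and Nr1d1, against 4.69% of all windows. The D-box was found in Per3 alone, as 2 matches 205 and 158 bases before the start, against 0.935% of all windows. The receptor element core was found in 4 of the 13 windows, 1 each of Arntl, Clock, Per1 and Nr1d2, against 16.3% of all windows. The match in Arntl lay 32 bases into the transcript of its downstream start. The antioxidant response element core was found in 4 of the 13 windows, 1 each of Per1, Cry1, Cry2 and Nr1d2, against 12.4% of all windows. Its matches in Cry1 overlapped on opposite strands. The cAMP response element (TGACGTCA) was found in 0 of the 13 windows, against 1.79% of all windows. A match describes letters only, and a window without one says nothing of elements elsewhere in the gene.

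**Figure D1:**
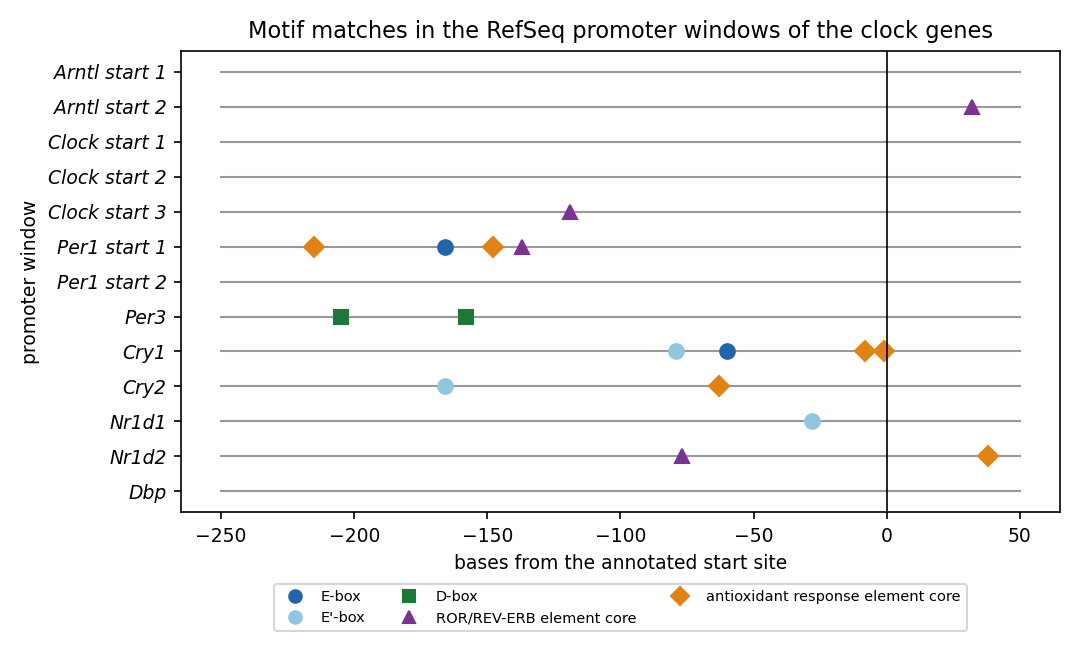
Each horizontal line is 1 of the 13 RefSeq promoter windows of the clock genes, drawn from 250 bases before to 50 after the annotated start (x axis, bases from the start), and each symbol is the first base of a motif match on either strand. Per3 carries 2 D-box matches, Cry1 an E-box and an E′-box near the start, and Dbp none of the motifs searched.

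At 16 h the REV-ERB genes Nr1d1 and Nr1d2 were higher with AA147 in the authors' deposited table, Arntl, Per2, Per3, Cry1 and Dbp were lower, and Clock, Per1 and Cry2 were not called. A call is an adjusted p under 0.05 from the authors' DESeq2 test, adjusted over all 13597 genes that had one. Of the 10 members, 7 were called in the authors' deposited table, 2 positive and 5 negative, where 20.2% of all tested genes were called, 9.05% positive and 11.1% negative. Among the 6096 tested genes whose mean lay in the range of the members, 23.2% were called. The members' median log2 fold change was -0.27 in the authors' deposited table, against 0.01 for all tested genes, and their median absolute log2 fold change was 0.34, against 0.14 for the genes in the same range of means.

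The table names no numerator, and its fold changes are read here as AA147 over vehicle. This reading was chosen because 6 of 8 targets of NRF2 were called positive, among them Nqo1 at a log2 fold change of 0.93 (standard error, SE, 0.067, adjusted p 1.73e-40) per the authors' deposited table. The other two, Gsr at 0.15 (SE 0.068, adjusted p 0.0998) and Slc7a11 at -0.40 (SE 0.21, adjusted p 0.179), were not called per the authors' deposited table, and Slc7a11 had the opposite sign. If the reading were wrong, every direction given here would be reversed. Each gene has a single line in the table with nothing per library, so the values shown for each group are those that the mean and the fold change imply for groups of equal size. Whether single libraries overlapped between the groups was not analysed here.

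**Figure D2:**
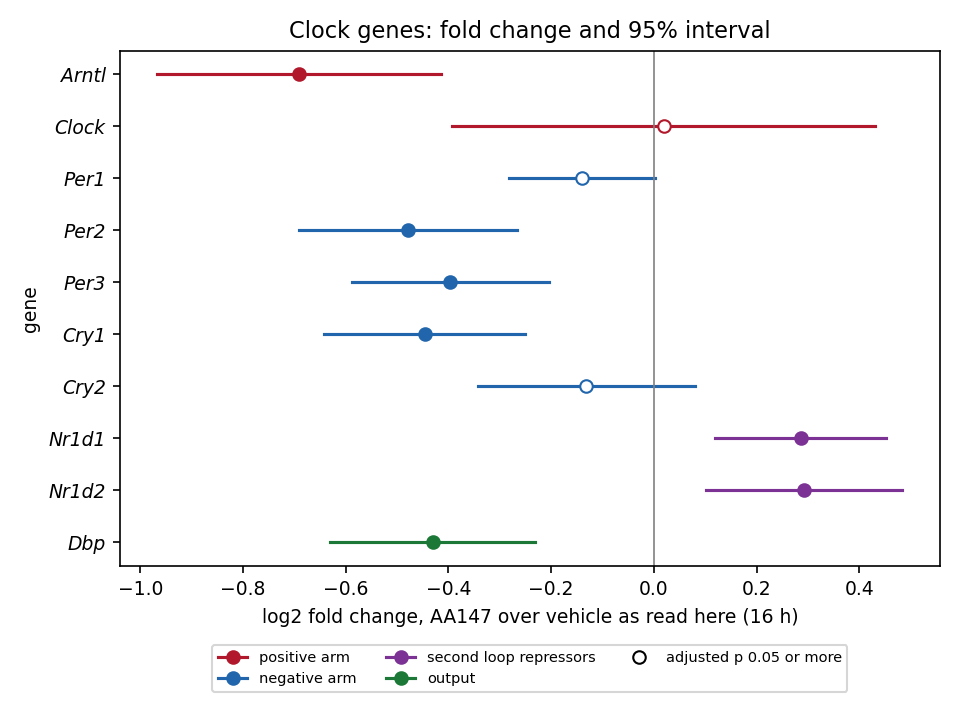
Log2 fold change (x axis) of each clock gene (y axis) from the authors' deposited table, with a line for the 95% interval computed from the authors' standard error, coloured by role, and filled points for an adjusted p under 0.05. The intervals of Arntl, Per2, Per3, Cry1 and Dbp lie below 0, those of Nr1d1 and Nr1d2 lie above it, and those of Clock, Per1 and Cry2 cross it.

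Of the genes of the activating dimer, Arntl was called and Clock was not. Arntl, the rhythmically transcribed partner of the activating dimer, had the lowest fold change of the members. Its mean of 315 normalized counts in the authors' deposited table implies 389 with vehicle and 241 with AA147. The log2 fold change of Arntl was -0.69 (SE 0.14, adjusted p 1.88e-05) per the authors' deposited table, a change of -38.0% with a 95% interval from -48.8% to -25.0%. Only 4.16% of all tested genes had a lower fold change.

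Clock, which encodes the other partner of the dimer, had a mean of 1304 in the authors' deposited table, which implies 1295 with vehicle and 1312 with AA147. The authors' deposited table gave Clock a log2 fold change of 0.02 (SE 0.21, adjusted p 0.968), with a 95% interval from -0.39 to 0.43. That interval is wide for the level of the gene. The SE was 2.49 times the median of the 200 genes nearest in mean, whereas the ratio for the other 9 members lay between 0.95 and 1.18. With this SE a log2 change under 0.54 could not have been called, while for the other members that limit lay between 0.19 and 0.36.

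A ratio of SE as high as that of Clock was found for 137 of the 10633 genes whose mean was at least 100, 1.29%. The median transcript of those 137 genes was 11446 bases, against 3424 for the others. The Clock transcript has 9911 bases, longer than 97.4% of the genes with a known length. A link between transcript length and the SE was not tested. In the difference between Clock and Arntl, 0.71 on the log2 scale, the 95% interval ran from 0.21 to 1.21.

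**Figure D3:**
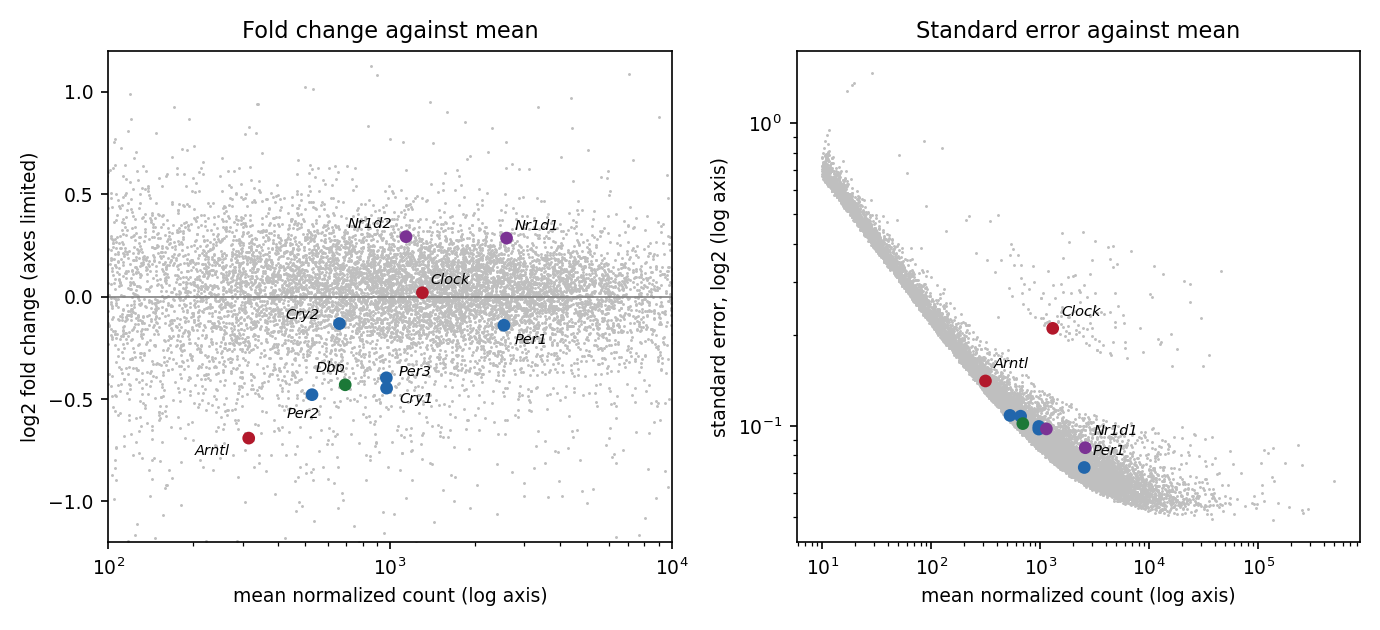
Left, log2 fold change against mean normalized count (log axis) for genes of the authors' deposited table in grey, with the clock genes coloured by role as in the plot of their fold changes. Right, standard error against mean (both log axes), where 9 clock genes lie in the main band and Clock, at 0.21, lies above it.

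In the negative arm all 5 fold changes were negative in the authors' deposited table, where 6571 of the 13597 tested genes were. Of these 5, Per2, Per3 and Cry1 were called, 3 in all, where 11.1% of all tested genes were called negative. Per2, which encodes a repressor that carries the complex with CRY proteins into the nucleus, had a mean of 528 in the authors' deposited table, implying 615 with vehicle and 442 with AA147. Per2 had a log2 fold change of -0.48 (SE 0.11, adjusted p 0.000154) per the authors' deposited table, a change of -28.2% (95% interval -38.1% to -16.9%). Per3, a paralog with a lesser part in the core loop, had a mean of 971 in the authors' deposited table, implying 1103 and 838 in the same order. The log2 fold change of Per3 was -0.40 (SE 0.098, adjusted p 0.000620) per the authors' deposited table, or -24.0% (-33.5% to -13.2%). This is the gene whose window holds the D-box matches, and a link of these to its fold change was not tested.

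Per1, the paralog known for a fast response to serum, glucocorticoids and cAMP, had the highest mean of the negative arm, also per kilobase of transcript. Its mean of 2539 in the authors' deposited table implies 2662 with vehicle and 2416 with AA147. Its log2 fold change of -0.14 (SE 0.073, adjusted p 0.175) per the authors' deposited table was not called, and the 95% interval ran from -0.28 to 0.003. A change of the size of that in Per2 thus lay outside the interval of Per1. The difference between Per1 and Per2 was 0.34 (95% interval 0.08 to 0.59), that between Per1 and Per3 was 0.26 (0.02 to 0.50), and that between Per2 and Per3 was -0.08 (-0.37 to 0.20).

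Of the cryptochromes, potent repressors of the dimer, Cry1 was called and Cry2 was not. Cry1 had a mean of 972 in the authors' deposited table, implying 1122 with vehicle and 823 with AA147. The authors' deposited table gave Cry1 a log2 fold change of -0.45 (SE 0.0996, adjusted p 0.000118), or -26.6% (-35.9% to -16.0%). Cry2 had a mean of 662 in the authors' deposited table, implying 692 and 631, and a log2 fold change of -0.13 (SE 0.11, adjusted p 0.445), with a 95% interval from -0.34 to 0.08. The difference between Cry2 and Cry1 was 0.31 (95% interval 0.03 to 0.60). Both windows hold an E′-box, and only that of Cry1 holds an E-box as well. Per1, described above, also has an E-box match. A link between motif matches and fold changes was not tested for any of these genes.

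The REV-ERB genes were the members that rose. Nr1d1, which encodes REV-ERBα, had a mean of 2594 in the authors' deposited table, implying 2338 with vehicle and 2850 with AA147. The log2 fold change of Nr1d1 was 0.29 (SE 0.085, adjusted p 0.00631) per the authors' deposited table, or 21.9% (8.64% to 36.8%). Nr1d2, which encodes REV-ERBβ, had a mean of 1140 in the authors' deposited table, implying 1025 and 1255, and a log2 fold change of 0.29 (SE 0.098, adjusted p 0.0181), or 22.5% (7.24% to 39.9%). The difference between the paralogs was -0.01 (95% interval -0.26 to 0.25). The call of Nr1d2 was lost once a trend on transcript length, GC and expression was subtracted, at 0.21 (adjusted p 0.110).

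The opposite signs of the REV-ERB genes and of Arntl, the gene they repress, made the widest gap among the pairs compared. Nr1d1 and Nr1d2 are also targets of the dimer, and they rose where its targets Per2, Per3, Cry1 and Dbp fell. Its targets Per1 and Cry2 were not called. No pair of a REV-ERB gene with any of these targets was compared. The log2 fold change of Nr1d1 exceeded that of Arntl by 0.98 (95% interval 0.65 to 1.30), and that of Nr1d2 exceeded it by 0.98 (0.65 to 1.32). These intervals, like those between paralogs, take the errors of a pair of genes as independent, which cannot be checked without values per library. Of the 12 pairs compared here, 9 had a 95% interval without 0. The pairs were chosen after the values were seen, so these intervals describe the differences and are no tests. The intervals within the Per and Cry families, between Clock and Arntl and between Dbp and Nfil3 included 0 when widened for 12 pairs.

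Dbp, the output gene, fell. Its mean of 693 in the authors' deposited table implies 796 with vehicle and 591 with AA147. Its log2 fold change was -0.43 (SE 0.10, adjusted p 0.000327) per the authors' deposited table, or -25.8% (-35.4% to -14.8%), which lies among the values of Per2, Per3 and Cry1.

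Levels between genes are comparable only per length. Per kilobase of the canonical transcript, Nr1d1 had the highest mean of the members in the authors' deposited table, at 953 normalized counts, followed by Per1 at 379, Dbp at 377 and Cry1 at 319. Nr1d2 lay at 201, Per3 at 161, Cry2 at 160 and Clock at 132, and Per2 at 90.6 and Arntl at 73.8 closed the order. The implied per-kilobase level of Arntl was 91.2 with vehicle and 56.5 with AA147. The order of Per1 and Dbp, and that of Per3 with both Cry2 and Nr1d2, turned between the implied levels of the groups: Per1 lay at 398 and Dbp at 433 with vehicle, and at 361 and 322 with AA147. The spread of these levels over libraries was not analysed here, so neighbours in the order were not tested.

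**Figure D4:**
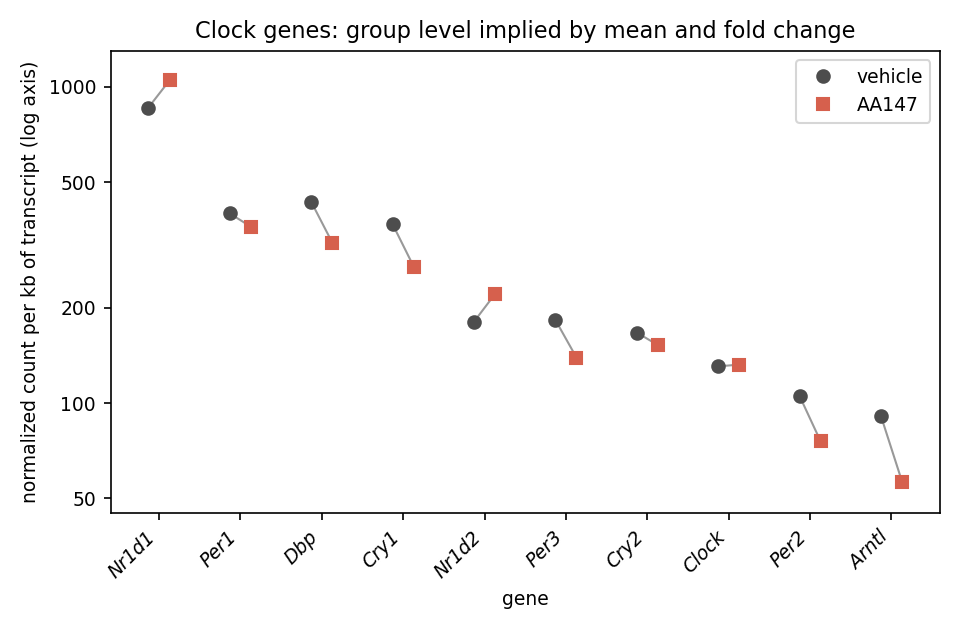
Level of each clock gene (x axis) with vehicle (circles) and AA147 (squares), in normalized counts per kilobase of transcript (y axis, log), as implied by the mean and fold change of the authors' deposited table, with no error shown because values per library were not analysed. Genes are ordered by their mean, from Nr1d1 at 953 to Arntl at 73.8.

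Some members share exonic bases with a gene on the opposite strand, and non-stranded reads from a shared stretch cannot be assigned to either gene. In the GENCODE M39 annotation of GRCm39, 52.3% of the exonic bases of Nr1d1 lie within exons of Thra, the thyroid hormone receptor α gene, at its 3′ end. Thra had a log2 fold change of 0.07 (SE 0.067, adjusted p 0.549) per the authors' deposited table at a mean of 2973. Dbp shares 15.5% of its exonic bases with Sphk2, a sphingosine kinase gene, which had a log2 fold change of 0.19 (SE 0.092, adjusted p 0.148) per the authors' deposited table. Clock shares 11.9% with Tmem165, which had a log2 fold change of -0.28 (SE 0.062, adjusted p 0.000130) per the authors' deposited table. The counts of Nr1d1, Dbp and Clock are uncertain to that extent, and how the authors' counting treated such reads is not given in the sources used here.

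Around the core loop, a list of 47 other clock genes was examined, of which 40 were in the authors' deposited table. Of these, 7 were called positive and 4 negative, and 29 were not called. Their median log2 fold change was 0.03, against 0.01 for all tested genes in the authors' deposited table, and the called share of 11 in 40 can be set beside the 20.2% of all tested genes.

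The lowest value of the list was that of a D-box factor. Of 3 D-box factors and 5 other feedback repressors, 1 of each was called, where 20.2% of all tested genes were. Nfil3, which encodes the repressor E4BP4 that competes with DBP for D-boxes, had a mean of 505 in the authors' deposited table, implying 652 with vehicle and 358 with AA147. Its log2 fold change was -0.86 (SE 0.11, adjusted p 2.37e-12) per the authors' deposited table, a lower value than that of any member. The D-box repressor and the D-box activator thus both fell, with a difference between Dbp and Nfil3 of 0.43 (95% interval 0.13 to 0.73). Tef, a paralog of Dbp, had -0.19 (SE 0.081, adjusted p 0.0877) per the authors' deposited table and was not called. Bhlhe40, which encodes the E-box repressor DEC1, fell by 0.38 on the log2 scale (SE 0.094, adjusted p 0.000728) per the authors' deposited table. The other 4 feedback repressors on the list, Bhlhe41, Ciart, Cipc and Timeless, were not called, with adjusted p from 0.375 to 0.643. Ciart at 0.23 and Cipc at 0.16 were positive, and the median of the feedback repressors was -0.07.

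Of 7 kinase genes and 5 ubiquitin ligase and deubiquitinase genes of the list that were in the authors' deposited table, 2 of each were called positive, where 9.05% of all tested genes were. Csnk1e, which encodes casein kinase 1ε, a kinase that marks PER proteins for degradation, had a log2 fold change of 0.39 (SE 0.071, adjusted p 1.04e-06) per the authors' deposited table. Its paralog Csnk1d had -0.09 (SE 0.057, adjusted p 0.303) per the authors' deposited table, and the difference was 0.48 (95% interval 0.30 to 0.66). Prkaa1, a catalytic subunit gene of the energy sensor AMPK, which acts on CRY1, had 0.31 (SE 0.068, adjusted p 9.80e-05) per the authors' deposited table.

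Btrc, which encodes the ubiquitin ligase subunit β-TrCP that binds phosphorylated PER proteins, had a log2 fold change of 0.35 (SE 0.086, adjusted p 0.000585) per the authors' deposited table. Its paralog Fbxw11 had 0.01 (SE 0.067, adjusted p 0.946) per the authors' deposited table, and the difference was 0.34 (95% interval 0.13 to 0.55). Usp2, a deubiquitinase gene that is itself a clock output, had 0.30 (SE 0.11, adjusted p 0.0398) per the authors' deposited table, and its call was lost when fold changes were centred on the median of the abundant genes (0.29, adjusted p 0.0526).

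Of 8 chromatin cofactors, 2 were called positive, where 9.05% of all tested genes were. Kdm5a, a histone demethylase gene, had a log2 fold change of 0.37 (SE 0.098, adjusted p 0.00157) per the authors' deposited table. Crebbp, a histone acetyltransferase gene, had 0.30 (SE 0.081, adjusted p 0.00192) per the authors' deposited table. Ncor1 and Hdac3, which encode the corepressor and the deacetylase that REV-ERB proteins recruit, had 0.01 and -0.08 in the authors' deposited table, with adjusted p of 0.961 and 0.425. Of the 6 input regulators, 0 were called in the authors' DESeq2 test, 0 had an unadjusted p under 0.05, and their log2 fold changes ran from -0.15 to 0.05 in the authors' deposited table. This group holds the CREB and CRTC factors and the glucocorticoid receptor gene Nr3c1, which relay signals to Per1. Over all tested genes, 20.2% were called.

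Of 5 clock-controlled outputs, 3 were called, 1 positive and 2 negative, where 20.2% of all tested genes were called. Wee1, a cell cycle kinase gene with E-boxes, fell by 0.27 on the log2 scale (SE 0.066, adjusted p 0.000549) per the authors' deposited table, and Klf9 fell by 0.36 (SE 0.12, adjusted p 0.0180). Ccrn4l, the older symbol of Noct, which encodes nocturnin, rose by 0.26 (SE 0.090, adjusted p 0.0258) per the authors' deposited table, a call lost with the trend on length, GC and expression subtracted (0.20, adjusted p 0.09997). Nampt, the rate-limiting gene of NAD salvage, had 0.14 (SE 0.089, adjusted p 0.314) per the authors' deposited table.

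**Figure D5:**
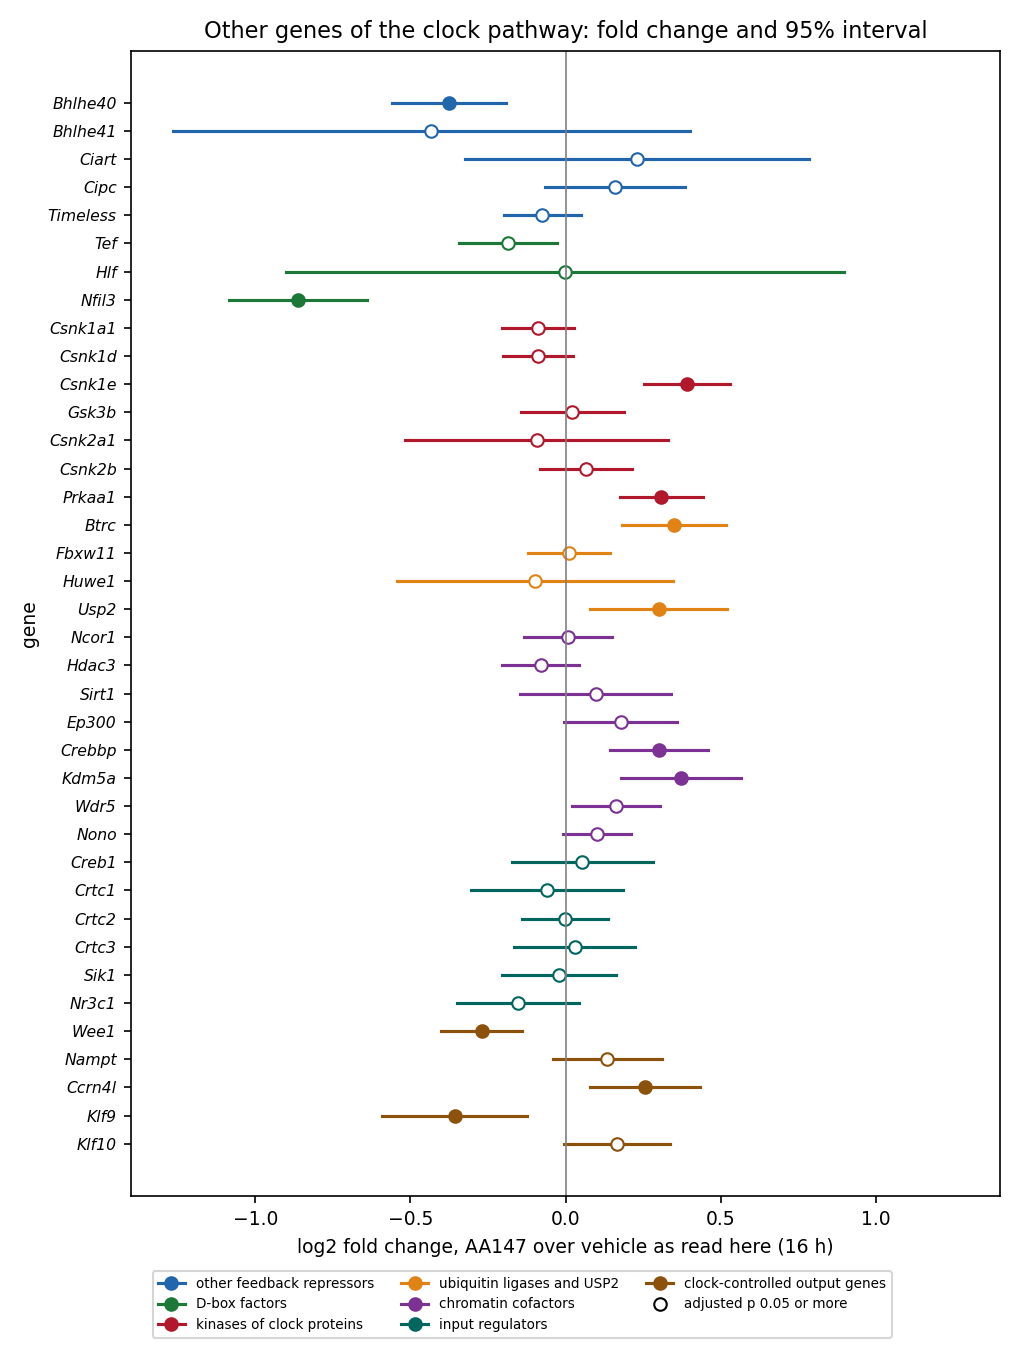
Log2 fold change (x axis) of 38 of the 40 other clock pathway genes in the authors' deposited table (y axis), with 95% intervals from the authors' standard errors, coloured by role, and filled points for an adjusted p under 0.05. Nfil3 lies lowest at -0.86 and Csnk1e highest at 0.39, and the 6 input regulators lie near 0.

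Marker lists were read beside the labelled cell type, and what they say of cell identity was not tested. Of 12 neuronal markers, Tubb3, Syn1 and Slc17a7 were in the authors' deposited table, at means of 1199, 562 and 3.93, and the others were not analysed here. Tubb3 was called positive at a log2 fold change of 0.43 (SE 0.092, adjusted p 5.67e-05), Syn1 had 0.13 (SE 0.13, adjusted p 0.558), and Slc17a7, with no adjusted p, had -1.98 (SE 1.26) per the authors' deposited table. Of 5 glial markers, Aldh1l1 and Mbp were in the authors' deposited table, at means of 27.4 and 2.00. Aldh1l1 was not called in the authors' DESeq2 test (adjusted p 0.484), and Mbp had no adjusted p. Of 6 fibroblast markers, 5 were in the authors' deposited table with summed means of 436239. Their means ran from 181 for Dcn to 254004 for Col1a2, with Col1a1 at 139176. All 5 were called negative, with log2 fold changes from -1.52 to -0.81, where 11.1% of all tested genes were called negative. The part of the marker changes in the clock results was not tested, and in bulk RNA fewer cells of a type and less RNA per cell cannot be told apart.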

How the data were processed

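Per the labels' protocols, a Zymo kit gave the RNA and the mRNA libraries were non-stranded. Per the submitters' processing notes, DESeq2 and the genome build mm9 were used, and the aligner, counter, annotation and model are not given in the sources used here. The authors deposited 1 line per gene, and per the file headers it holds a mean normalized count (a signal, not whole reads), a log2 fold change with its standard error, the test statistic (a score equal to their ratio), a p-value, and the p-value after adjustment. Of 16472 genes, 2875 had no adjusted p, all with a mean of at most 8.41. The depth of each library is unknown, and precision is given by the deposited standard errors.

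From these values were computed 95% normal intervals, implied group levels, differences between genes with errors added in quadrature, the ratio of each standard error to the median of the 200 genes nearest in mean, and means per kilobase. Transcript lengths came from canonical transcripts of GENCODE M39, known for 86.7% of genes, and promoter windows from RefSeq on GRCm38.p6. Coordinates belong to those windows only. Genes were matched by symbol, with 1 list gene found under an older symbol.

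The members and lists were chosen with earlier results of these data known. Named genes were the members, the called genes of each role of the pathway list (at most 3 per direction), genes overlapping a member, marker genes and NRF2 targets. Other genes were named after their values were seen, as paralogs or partners of these. The pairs compared were chosen likewise. Some genes of the pathway list are counted but not reported here by name. Alternatives were a stricter threshold, other adjustments, centring, a limit on the mean, and a fitted trend over length, GC and expression, from robust regression over 10176 genes. The code for the trend was tested on simulated data. Python 3.11.15, pandas 2.3.3, SciPy 1.17.1, statsmodels 0.14.6 and matplotlib 3.10.9 were used.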

Additional observations from a re-analysis of the deposited data

How the results depend on the processing

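No paired analysis was possible because each gene has only 1 deposited line for all 6 libraries. Likewise, refits with edgeR or with other size factors or filters, the fit with a replicate block and leaving out each replicate in turn were not run. The 2 positive and 5 negative calls among the members were 1 and 5 at an adjusted p under 0.01, 0 and 1 with a Bonferroni adjustment, and 1 and 5 after subtraction of the trend over length, GC and expression. Arntl was the member called with the Bonferroni adjustment, which called 4.57% of all genes. In each of these settings the fewer calls follow from the stricter rule, except for the trend, where Nr1d2 moved from 0.29 to 0.21 and the cause was not tested. The 7 positive and 4 negative calls of the pathway list were 1 and 1 with the Bonferroni adjustment and within 1.5 times otherwise. Of 66 values of the 11 called pathway genes, 52 kept their call and sign and 14 lost their call, 9 of these with the Bonferroni adjustment. Of 60 values of single members under the 6 alternatives, 51 kept their sign and their side of the threshold, 8 lost their call, and 1 changed sign: Clock, not called in either case, was -0.072 (adjusted p 0.858) with the trend subtracted. The largest shift of a member was 0.091 with the trend and 0.013 with centring on the median of genes with a mean of at least 100. Low genes of the pathway list, such as Hlf and Bhlhe41, at means of 25.4 and 25.4, had wide standard errors of 0.46 and 0.43. The part of sequencing depth in this was not tested.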
